A study of Mus musculus with 12 samples.

Results

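Fosl1, Fos, Jun, Junb, Jund, Atf3, Egr1, Cyr61 and Ctgf are 9 genes of the AP-1, Egr1 and CCN families whose transcripts answer growth signals and stress quickly in many cell types. They were followed here in PGCLCs (primordial germ cell-like cells of the mouse), made in culture to stand for the embryonic founders of sperm and eggs. The genes were taken by symbol, all 9 were among the 12955 rows of the expression table, and each occupied 1 row. The set was chosen by measured values: Fosl1, Atf3 and Cyr61 had higher FPKM with the compound dTAG13 than with DMSO in these same libraries. Values of all 9 in that comparison are therefore a description without a test, and the 9 genes are tested only in comparisons of OE and EV libraries. Genes of other lists are also tested with dTAG13 and DMSO.

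The study varied Tex10, which encodes a nuclear protein linked to ribosome maturation and pluripotency, in PGCLCs derived from male J1 mouse embryonic stem cells. The cells were sorted from embryoid bodies for the surface markers CD61 and SSEA1, and polyadenylated RNA was sequenced from 12 libraries in 6 groups of 2. The groups were dTAG13 for 2 days and DMSO for 2 days, both at day 2 of differentiation, then OE and EV at day 2, and OE and EV at day 6. The labels do not spell out OE and EV and name no treatment for these groups. dTAG13 is a small molecule that brings proteins that carry a matching tag to the degradation machinery; it is given in DMSO. The labels do not say which protein carried the tag, from which clones the lines came, or whether the 2 libraries of a group were separate cultures, so p values measure only the spread between these libraries, which may be technical. Fewer cells of a type and less RNA per cell cannot be told apart in such bulk samples.

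Tex10 transcript was higher in OE than in EV at both days. It read 403 and 378 FPKM in OE against 119 and 145 in EV at day 2. At day 6 it read 259 and 269 FPKM in OE against 65.7 and 81.5 in EV. Tex10 read 45.2 and 36.5 FPKM with dTAG13 and 61.7 and 56.8 FPKM with DMSO; Tex10 protein was not measured here. FPKM scales the fragments of a gene by transcript length and by the library's mapped fragments, and its sum per library ran from 550230 to 673435. Depth is unknown. Of 14 PGCLC marker genes, 13 were in the table. Nanog stood at 151 to 277 FPKM and Pou5f1 at 610 to 1156 FPKM over the 12 libraries. Among the other listed markers, Ifitm3 ran from 250 to 1042 FPKM, Prdm1 from 3.37 to 7.19 FPKM and Nanos3 from 2.84 to 56.9 FPKM. Fut4 was the listed marker that was not in the table, and Itgb3, which encodes CD61, read 0 to 4.39 FPKM. D2_dTAG replicate 1 stood apart with 2008 genes listed at 0 (15.5%), against 18 to 127 genes elsewhere, so dTAG13 levels of the 9 genes are given for both libraries and their differences also without this one.

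AP-1 is a transcription factor made of pairs of proteins that hold together through a leucine zipper, usually a FOS-type protein with a JUN-type protein. Fos and Fosl1 encode FOS-type subunits, Jun, Junb and Jund encode JUN-type subunits, and Atf3 encodes a related stress-induced subunit that can pair with JUN proteins. Egr1 encodes a zinc finger factor whose gene is switched on early by ERK signalling and serum. Cyr61 and Ctgf, now also called Ccn1 and Ccn2, encode secreted matrix-associated proteins that are widely used as readouts of YAP and TAZ, the co-activators held back by the Hippo kinases, and YAP-bound regions often carry AP-1 motifs as well.

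Promoter sequences are shown for 5 of the 9 genes, to let a reader see which short elements these signal-responsive genes share near their starts. The RefSeq table (GRCm38.p6) matched 6 genes by symbol, Cyr61 as Ccn1; Fosl1, Egr1 and Ctgf are named only. The Jund window of RefSeq, chr8:70697609-70697738 (plus strand), lies apart from the GENCODE start of Jund given further on, so it is not printed. It was searched with the others and held none of the motifs. The 130 bases before the RefSeq start are printed 5′ to 3′ on the gene's strand, and capitals mark matches to the motifs described after them. The windows are chr12:85473760-85473889 (plus strand) for Fos, chr4:95052223-95052352 (minus strand) for Jun, chr8:84978749-84978878 (minus strand) for Junb, chr1:191183334-191183463 (minus strand) for Atf3 and chr3:145649986-145650115 (minus strand) for Cyr61. RefSeq starts need not be the outer ends of the GENCODE genes: the Atf3 window lies inside the Atf3 span given further on.
Fos: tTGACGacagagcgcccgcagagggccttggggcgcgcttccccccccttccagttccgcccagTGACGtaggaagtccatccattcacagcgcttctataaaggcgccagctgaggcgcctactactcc
Jun: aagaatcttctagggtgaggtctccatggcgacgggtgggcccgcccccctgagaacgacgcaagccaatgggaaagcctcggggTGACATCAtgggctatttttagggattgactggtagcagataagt
Junb: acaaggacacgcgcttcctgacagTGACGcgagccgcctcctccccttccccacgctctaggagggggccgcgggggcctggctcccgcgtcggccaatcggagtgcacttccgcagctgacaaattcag
Atf3: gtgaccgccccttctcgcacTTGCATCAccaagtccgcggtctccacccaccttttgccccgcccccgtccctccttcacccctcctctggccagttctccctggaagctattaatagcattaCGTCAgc
Cyr61: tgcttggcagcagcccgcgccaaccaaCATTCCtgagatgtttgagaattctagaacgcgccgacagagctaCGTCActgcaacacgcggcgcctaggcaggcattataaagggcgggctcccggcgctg

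The motifs were searched on both strands in the 250 bases before the start, and the set was completed after these promoters had been read. TGACG, the core that CREB and ATF factors share, was present in 4 of the 6 windows searched (Fos, Junb, Atf3 and Cyr61, not Jun or Jund). Of 32851 mouse promoter windows of that length, 17.8% held it. Fos held it at both -129 and -66, counted back from the base before the start. TGACATCA, a variant of the AP-1 element, was present in Jun at -45 (2.93% of all windows). TGATGCAA, which C/EBP-ATF pairs can bind, was present in Atf3 at -110 on the other strand (0.791%), and GGAATG, the core of TEAD sites, in Cyr61 at -103 on the other strand (12.6%). The AP-1 element TGANTCA (6.75% of all windows), the full element TGACGTCA (1.55%) and the CArG box bound by SRF (1.47%) matched none of the 6 windows. A match describes letters only, and elements farther from the start were not searched.

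With dTAG13, Fosl1, Atf3 and Cyr61 stood furthest above DMSO among the 9 genes. Fosl1, on chromosome 19 from 5447547 to 5455946, had 10.5 and 6.40 FPKM with dTAG13, against 0.458 and 0.5998 FPKM with DMSO. Atf3, on chromosome 1 from 191170296 to 191218039, had 13.7 and 9.26 FPKM with dTAG13, against 2.40 and 1.97 FPKM with DMSO. Cyr61, on chromosome 3 from 145646976 to 145649981, had 145 and 79.8 FPKM with dTAG13, against 18.0 and 15.8 FPKM with DMSO. For all 3, both dTAG13 libraries lay above every other library of the series. As log2(FPKM + 1), where the added 1 shrinks the differences of weakly expressed genes, the difference from DMSO was 2.59 for Fosl1 (SE 0.25), 1.95 for Atf3 (SE 0.28) and 2.60 for Cyr61 (SE 0.29). D2_dTAG replicate 2 alone gave 2.28, 1.69 and 2.18 for the same genes in that order.

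**Figure D1:**
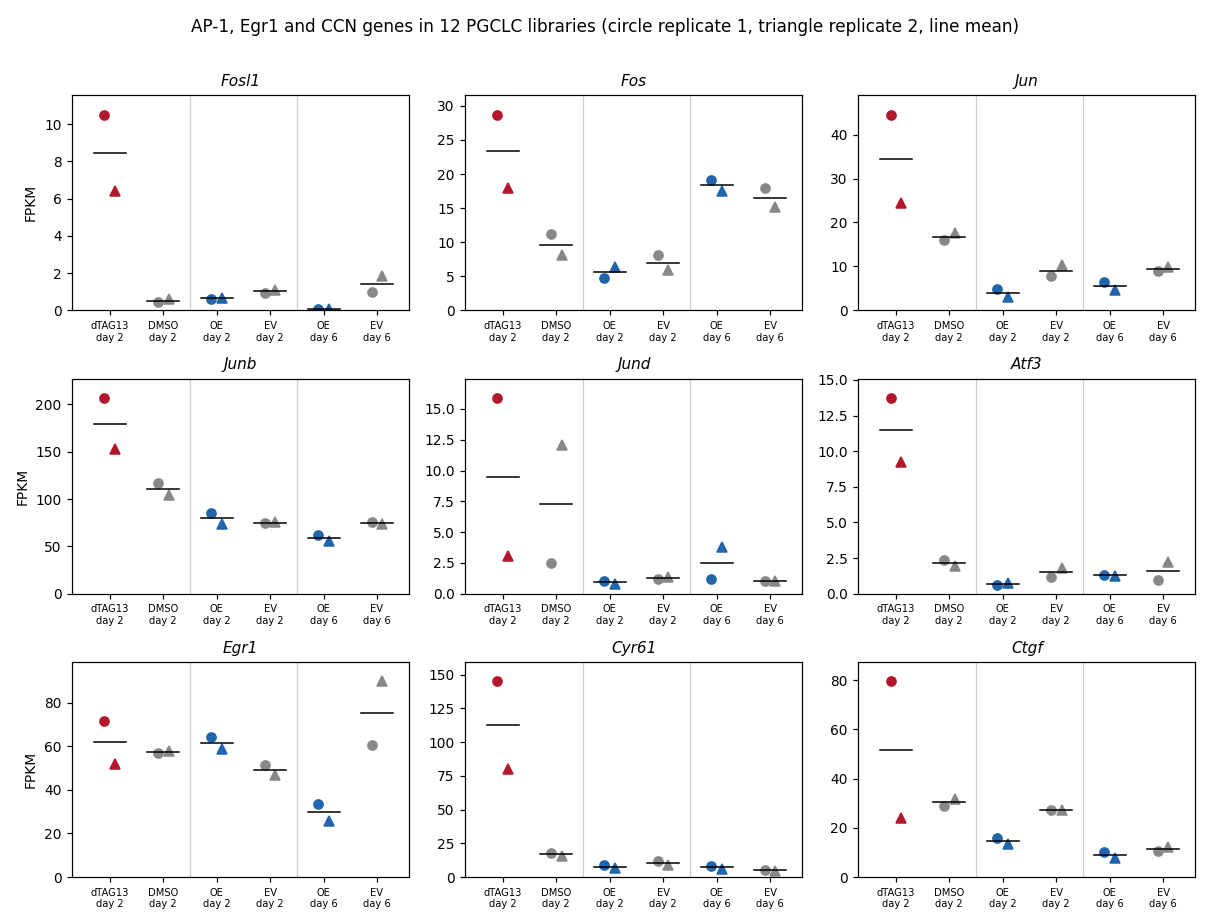
FPKM (linear axis from 0) of each of the 9 genes in the 12 libraries, by group; circles are replicate 1, triangles replicate 2 and lines group means. Fosl1, Atf3 and Cyr61 sit near the bottom of their axes in every group but dTAG13, while Jund and Ctgf split the 2 dTAG13 libraries.

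Fos, Jun and Junb also stood above DMSO with dTAG13, by smaller amounts. Fos, on chromosome 12 from 85473890 to 85477273, had 28.7 and 17.9 FPKM with dTAG13, against 11.2 and 8.07 FPKM with DMSO. Jun, on chromosome 4 from 95049034 to 95052222, had 44.5 and 24.4 FPKM with dTAG13, against 16.0 and 17.5 FPKM with DMSO. Junb, on chromosome 8 from 84974484 to 84978718, had 207 and 153 FPKM with dTAG13, against 117 and 104 FPKM with DMSO. The libraries of the 2 groups did not overlap for any of these 3 genes. The log2 differences were 1.17 for Fos, 0.94 for Jun and 0.69 for Junb, and with D2_dTAG replicate 2 alone 0.85, 0.52 and 0.47 in that order. Junb, which can act as a weaker activator than Jun at AP-1 sites, had the highest FPKM of the 9 genes in 11 of 12 libraries.

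Jund, Ctgf and Egr1 did not separate the dTAG13 libraries from the DMSO libraries. Jund, on chromosome 8 from 70698949 to 70700616, had 15.9 and 3.06 FPKM with dTAG13, against 2.48 and 12.1 FPKM with DMSO. Ctgf, on chromosome 10 from 24595442 to 24598683, had 79.5 and 24.2 FPKM with dTAG13, against 28.9 and 31.7 FPKM with DMSO. Egr1, on chromosome 18 from 34859823 to 34864984, had 71.6 and 51.8 FPKM with dTAG13, against 56.7 and 57.9 FPKM with DMSO. In all 3, D2_dTAG replicate 2 lay below at least 1 DMSO library, and for Ctgf and Egr1 below both. The log2 differences of 0.29 for Jund, 0.52 for Ctgf and 0.09 for Egr1 became -0.73, -0.31 and -0.14, in that order, with D2_dTAG replicate 2 alone. The 2 CCN genes differed in that library, where Cyr61 was 4.72 times and Ctgf 0.797 times its DMSO mean.

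The 9 genes had a median log2 difference of 0.94 with dTAG13 over DMSO and of 0.52 with D2_dTAG replicate 2 alone, while the median of the 12059 genes tested was -0.13. In 6 of 9 genes both dTAG13 libraries lay above both DMSO libraries, and 13.8% of all genes tested did so; in none did both lie below, against 34.7% of all genes. Since this comparison chose the genes, nothing is read from that count. Every one of the 9 genes was higher in D2_dTAG replicate 1 than in replicate 2, with a median log2 gap of 0.65, against 53.2% of all genes tested and a median gap of 0.07. Between the DMSO libraries, 4 of 9 were higher in replicate 1. The part of D2_dTAG replicate 1 in these differences was not tested beyond the values without it.

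The split of Jund and Ctgf between libraries was also seen in the genes nearest to them in profile. These genes were picked on the same 12 libraries, so the likeness follows from that choice. For each gene with an SD of at least 0.5 over the 12 libraries, the 2 other genes with the smallest root mean square difference between centred log2 profiles were found. For Jund these were Nsmce4a (0.29) and the immediate early gene Klf2 (0.32). Klf2 had 122 and 29.0 FPKM with dTAG13, 43.5 and 121 with DMSO, 17.4 and 34.5 in OE at day 6, and 20.9 to 27.6 in the other libraries. Like Jund, it was high in D2_dTAG replicate 1 and D2_DMSO replicate 2 and raised to a lesser level in D6_OE replicate 2. For Ctgf they were Dusp4 (0.19), a phosphatase gene of ERK feedback, and Pon2 (0.21). Dusp4 had 25.1 and 4.85 FPKM with dTAG13, against 5.84 and 6.52 FPKM with DMSO, so it was high in D2_dTAG replicate 1 only.

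**Figure D2:**
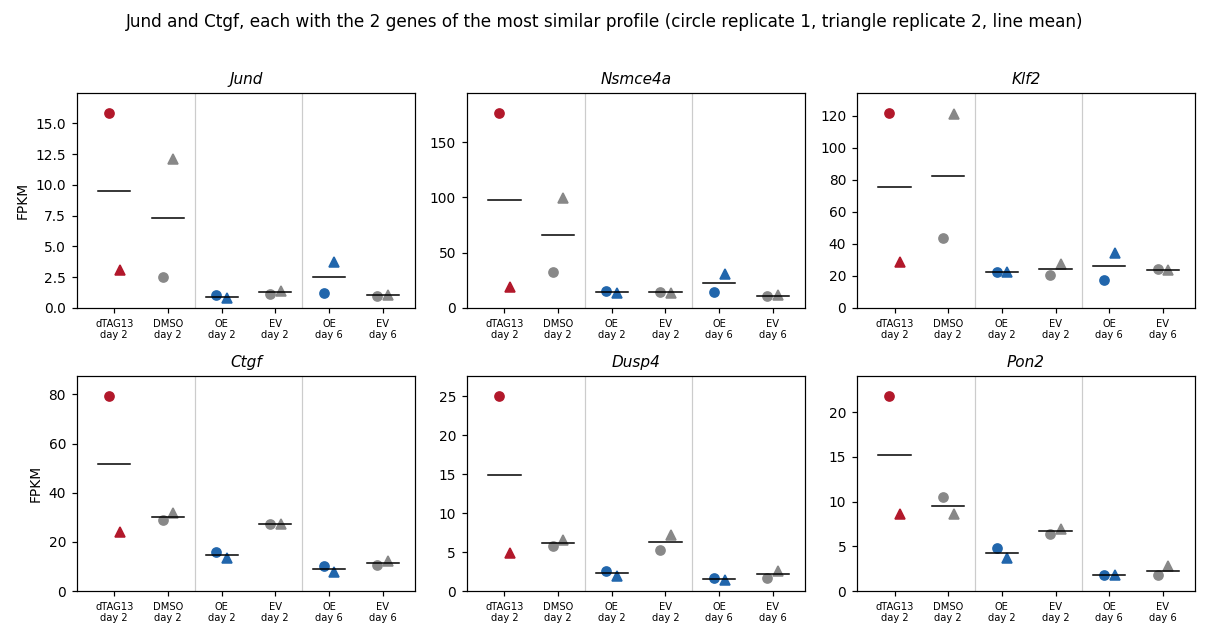
FPKM (linear axis from 0) of Jund (top row) and Ctgf (bottom row), each beside the 2 genes of most similar profile, in the 12 libraries; circles are replicate 1, triangles replicate 2 and lines group means. The Jund row peaks in D2_dTAG replicate 1 and D2_DMSO replicate 2, and the Ctgf row in D2_dTAG replicate 1.

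The genes most like the others in profile were also taken by this rule. Fosl1 was nearest to Tas1r1 (0.30) and Ddit4l (0.32), and Ddit4l had 29.9 and 26.3 FPKM with dTAG13, against 7.06 and 6.47 FPKM with DMSO. Atf3 was nearest to Bbs7 (0.19) and Cnga3 (0.22), and Cyr61 to Rtkn (0.46) and Ms4a10 (0.55). Fos was nearest to Atp9a (0.21) and Ly6g6e (0.23), Jun to Rbp7 (0.32) and Arap2 (0.34), and Junb to Rbck1 (0.14) and Fam173a (0.15). Egr1 varied too little for the rule.

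The DMSO libraries themselves stood above the EV libraries of the same day for 8 of 9 genes; they are the same DMSO libraries that served in choosing the genes, so this too is a description. Junb had 117 and 104 FPKM with DMSO, against 74.3 and 76.1 FPKM in EV, a log2 difference of 0.54. Jun had 16.0 and 17.5 FPKM with DMSO, against 7.82 and 10.3 FPKM in EV, a difference of 0.83. Cyr61 had 18.0 and 15.8 FPKM with DMSO, against 12.2 and 8.64 FPKM in EV, a difference of 0.66. Fosl1 went the other way, with 0.458 and 0.5998 FPKM with DMSO and 0.926 and 1.11 FPKM in EV. The median over the 9 genes was 0.41, against 0.03 over all genes tested, and 29.5% of all genes tested had both DMSO libraries above both EV libraries. Both lay below in 22.7% of genes, as for Fosl1. Of the genes of all lists named further on, 3 were higher in the DMSO than in the EV libraries (limma, 0.39% of all genes tested passed). These were Hand1 by 1.89, Gadd45a by 1.09 and Krt8 by 1.06. Tex10 also differed, at 61.7 and 56.8 FPKM with DMSO against 119 and 145 FPKM in EV (-1.13, limma adjusted p = 0.0104). The labels name no treatment for EV, and the part of DMSO in these differences was not tested.

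In OE at day 2, none of the 9 genes passed the test against EV (limma, Benjamini-Hochberg adjusted p below 0.05), and 0.846% of all genes tested did (0.44% higher and 0.406% lower). At an unadjusted p below 0.05, 1 of 9 genes and 1483 of 12059 passed. Jun had 4.82 and 3.16 FPKM in OE, against 7.82 and 10.3 FPKM in EV, a log2 difference of -1.02 (SE 0.29, adjusted p = 0.166). Ctgf had 16.0 and 13.3 FPKM in OE, against 27.2 and 27.2 FPKM in EV, a difference of -0.86 (SE 0.41, adjusted p = 0.455). Both OE libraries lay below both EV libraries for 5 of 9 genes (Fosl1, Jun, Jund, Atf3 and Ctgf), an order that 22.6% of all genes tested had. They lay above for Egr1, as for 31.1%. Jun and Ctgf passed in limma fits without D2_dTAG replicate 1, at an adjusted p of 0.00402 and 0.00244, in which 1692 genes passed in all. Over all 16 alternatives the adjusted p ran from 0.00402 to 0.707 for Jun and from 0.00240 to 0.951 for Ctgf.

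On the log2(FPKM + 1) scale the other genes differed less in OE at day 2. As a ratio of mean FPKM, Atf3 at 0.471 lay below Ctgf at 0.538. Atf3 stood at 0.625 and 0.782 FPKM in OE, against 1.15 and 1.84 FPKM in EV (-0.54, adjusted p = 0.507). Cyr61 stood at 9.19 and 6.44 FPKM in OE, against 12.2 and 8.64 FPKM in EV (-0.37, adjusted p = 0.733), and the groups overlapped. Egr1 stood at 64.2 and 58.7 FPKM in OE, against 51.5 and 46.8 FPKM in EV (0.32, adjusted p = 0.648). Fosl1, Fos, Junb and Jund lay between -0.29 and 0.08 on the log2 scale. Of the 9 log2 differences, 7 were negative, with a median of -0.29 against 0.04 over all genes tested.

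In OE at day 6, Egr1 and Fosl1 fell, 2 of 9 genes, with 1.79% of all genes tested lower, 1.92% higher and 3.72% called in either direction. Egr1 had 33.4 and 25.9 FPKM in OE, against 60.4 and 89.7 FPKM in EV. It fell by 1.29 on the log2 scale (limma, SE 0.21, adjusted p = 0.0116). Fosl1 had 0.0827 and 0.0534 FPKM in OE, against 1.01 and 1.84 FPKM in EV, near the lower end of what the table holds. It fell by 1.16 (SE 0.25, adjusted p = 0.0325), and was not called with the replicate number as a block (adjusted p = 0.0519). The size depends on the pseudocount: over the alternatives Fosl1 ran from -3.14 (pseudocount 0.1) to -0.84 (quantile normalization), and the ratio of mean FPKM was 0.048. Leaving out 1 of the 4 libraries left 0 or 1 of the 9 genes called. Egr1 then stood between -1.57 and -1.01, with an adjusted p of up to 0.130, and was called only without D6_EV replicate 1.

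The remaining 7 genes did not pass in OE at day 6. Junb had 62.0 and 55.8 FPKM in OE, against 75.9 and 73.5 FPKM in EV (-0.34, limma adjusted p = 0.264). Jun had 6.52 and 4.75 FPKM in OE, against 8.91 and 9.83 FPKM in EV (-0.66, limma adjusted p = 0.276). Both OE libraries lay below both EV libraries for 5 of 9 genes at day 6 (Fosl1, Jun, Junb, Egr1 and Ctgf), against 29.5% of all genes tested. They lay above for Jund and Cyr61, as for 39.3%. Cyr61 had 8.24 and 6.30 FPKM in OE, against 5.38 and 4.67 FPKM in EV (0.45), and Ctgf 10.1 and 7.58 FPKM in OE, against 10.6 and 12.3 FPKM in EV (-0.35). Fos, Atf3 and Jund had log2 differences of 0.15, -0.16 and 0.68, in that order.

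**Figure D3:**
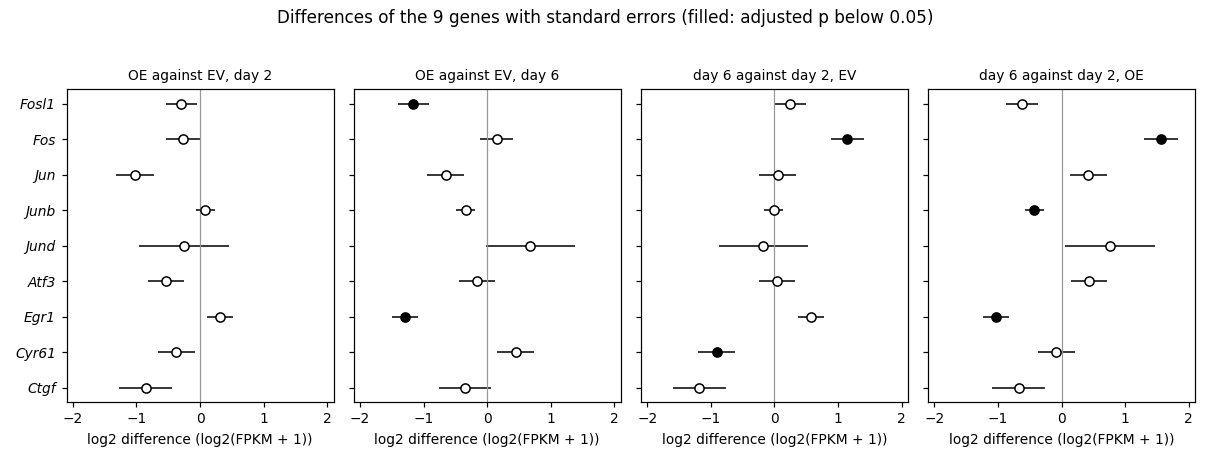
Log2 differences of the 9 genes (x axis, log2(FPKM + 1) scale) in 4 comparisons, first-named group minus second; points are fitted differences, bars standard errors, and filled points passed at an adjusted p below 0.05. Fosl1 and Egr1 are filled in OE at day 6, and Fos is filled in both comparisons of day 6 with day 2.

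From day 2 to day 6, Fos was the gene of the 9 that moved in both lines. At day 6 in EV it had 18.0 and 15.1 FPKM, against 8.07 and 5.88 FPKM at day 2, and rose by 1.15 on the log2 scale (limma, SE 0.26, adjusted p = 0.0117). At day 6 in OE it had 19.2 and 17.6 FPKM, against 4.78 and 6.42 FPKM at day 2, and rose by 1.56 (SE 0.26, adjusted p = 0.00173). Both day 6 libraries lay above both day 2 libraries in each line, as for 39.9% of all genes tested in EV and 46% in OE. The EV rise had an adjusted p of 0.0920 without D2_EV replicate 2 and of 0.101 without D6_EV replicate 1, and the OE rise passed in all 16 alternatives. These comparisons use the same libraries as the OE comparisons above.

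Of the CCN genes, Cyr61 fell in EV, and Ctgf was lower at day 6 in both lines without passing the test. In EV, Cyr61 had 5.38 and 4.67 FPKM at day 6, against 12.2 and 8.64 FPKM at day 2, and fell by 0.91 (limma, SE 0.29, adjusted p = 0.0485). That call passed in 9 of 16 alternatives and was lost whenever 1 of the 4 libraries was left out. Ctgf had 10.6 and 12.3 FPKM at day 6 in EV, against 27.2 and 27.2 FPKM at day 2 (-1.18, adjusted p = 0.0645). In OE it had 10.1 and 7.58 FPKM at day 6, against 16.0 and 13.3 FPKM at day 2 (-0.68, adjusted p = 0.243). The Ctgf libraries did not overlap between the days in either line (lower at day 6 in 33% of all genes tested in EV and 35.9% in OE). Without D2_dTAG replicate 1 Ctgf had an adjusted p of 2.48e-05 in EV and of 0.00126 in OE.

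Egr1 and Junb fell between day 2 and day 6 in OE. Egr1 had 33.4 and 25.9 FPKM at day 6, against 64.2 and 58.7 FPKM at day 2, and fell by 1.04 (limma, SE 0.21, adjusted p = 0.00448), a call lost without D6_OE replicate 2 (-0.86, adjusted p = 0.0508). Junb had 62.0 and 55.8 FPKM at day 6, against 85.8 and 74.1 FPKM at day 2, and fell by 0.43 (SE 0.15, adjusted p = 0.0472), a call that was lost without any 1 of the 4 libraries. Fosl1 had 0.0827 and 0.0534 FPKM at day 6 in OE, against 0.618 and 0.677 FPKM at day 2 (-0.63, adjusted p = 0.0792). It passed in 7 of 16 alternatives, among them a pseudocount of 0.1 (-2.16, adjusted p = 0.00698) and quantile normalization (-0.77, adjusted p = 0.0159), under both of which Junb did not pass. In EV, Egr1 had 60.4 and 89.7 FPKM at day 6, against 51.5 and 46.8 FPKM at day 2 (0.57, adjusted p = 0.0747), and Junb stood at -0.01. In all, 1 of 9 genes rose and 1 fell in EV, with 23.7% of all genes tested called in either direction (13.3% higher, 10.5% lower). In OE 1 rose and 2 fell, with 32.3% called (17.5% higher, 14.7% lower), so the share among the 9 was near that of all genes.

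Whether OE acted differently at the 2 days was tested directly as the OE difference at day 6 minus that at day 2. None of the 9 genes passed (limma; 0.232% of all genes did, 0.0663% higher and 0.166% lower), while 2 of 9 had an unadjusted p below 0.05 and 1303 of 12059 did. Egr1 came closest, at 0.32 at day 2 and -1.29 at day 6, a difference of -1.61 (SE 0.30, adjusted p = 0.0696). It had 64.2 and 58.7 FPKM in OE against 51.5 and 46.8 in EV at day 2, and the reverse order at day 6. The difference for Egr1 passed in 6 of 20 alternatives, among them median-ratio scaling (adjusted p = 0.0325) and the fit without D2_dTAG replicate 1 (0.00157), and its adjusted p ran up to 0.335.

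Ordered by mean level, dTAG13 came first of the 6 groups for every gene but Egr1, and its libraries were clear of the next group for Fosl1, Jun, Junb, Atf3 and Cyr61. The lowest mean was in OE at day 2 for Fos, Jun, Jund and Atf3, in OE at day 6 for Fosl1, Junb, Egr1 and Ctgf, and in EV at day 6 for Cyr61. Many neighbours in these orders overlapped: for Fos, OE and EV at day 6, and OE and EV at day 2; for Atf3, DMSO, EV at day 6 and EV at day 2; for Junb, OE at day 2, EV at day 2 and EV at day 6. Over the 12 libraries, Fosl1 ran from 0.0534 to 10.5 FPKM, Cyr61 from 4.67 to 145 FPKM and Egr1 from 25.9 to 89.7 FPKM.

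Other genes of the same biology were taken from lists of 201 entries. Their counts with dTAG13 stand against 4.01% of all genes tested higher, 8.21% lower and 12.2% called in either direction. All list calls with dTAG13, here and below, rest on the spread pooled over all 6 groups. In that fit 1473 genes passed with dTAG13. With only the groups compared 0 genes passed, and with sample quality weights 20 did. Of 20 tested immediate early genes outside the 9, 5 rose and 2 fell (median 0.20, all genes -0.13). Plk2, a polo-like kinase gene, had 181 and 168 FPKM with dTAG13, against 46.5 and 39.5 FPKM with DMSO (2.00, limma SE 0.13, adjusted p = 0.000205), and fell in OE at both days, by 1.03 and 1.01. The anti-proliferative gene Btg2 had 71.5 and 60.3 FPKM with dTAG13, against 17.4 and 15.0 FPKM with DMSO (1.95, adjusted p = 0.000205). Both are also known p53 targets. Myc, a growth regulator, had 26.1 and 21.0 FPKM with dTAG13, against 43.2 and 54.7 FPKM with DMSO, and fell by 1.02 (adjusted p = 0.0432). Values without D2_dTAG replicate 1 were 1.94, 1.83 and -1.17 in that order.

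Of 17 tested YAP and TEAD targets other than Cyr61 and Ctgf, 4 rose with dTAG13 and 1 fell (median 0.08). Ptpn14, a phosphatase gene that restrains YAP, had 11.5 and 9.56 FPKM with dTAG13, against 3.65 and 3.89 FPKM with DMSO (1.27, limma adjusted p = 0.00567). The receptor gene Axl had 8.58 and 1.88 FPKM with dTAG13, against 0.509 and 0.387 FPKM with DMSO (1.86, adjusted p = 0.0236), and its difference was 0.99 without D2_dTAG replicate 1. Amotl1, a junction protein gene, rose by 1.14 (adjusted p = 0.0139). Of 16 Hippo pathway components 0 rose and 2 fell: Tead2, a DNA-binding partner of YAP (-0.80), and the Hippo activator Nf2 (-0.73). Yap1 itself read 7.51 and 2.36 FPKM with dTAG13, against 2.74 and 3.37 FPKM with DMSO; it was named after its values were seen.

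The partners, kinases and targets of AP-1 were counted in the same way with dTAG13; the values in parentheses are log2 differences. Of 15 other bZIP genes 0 rose and 1 fell, Batf3 (-0.82, and -0.57 without D2_dTAG replicate 1), which read 0 and 0.412 FPKM with dTAG13, against 0.902 and 1.32 FPKM with DMSO. Of 19 kinases and regulators upstream of AP-1, 0 rose and 3 fell. These were Map2k6, an activator of p38 (-1.65, and -0.99 without that library), Mkl1, an SRF co-activator (-1.26, and -0.72 without it), and the ERK gene Mapk3 (-0.91). Map2k6 read 0 and 1.49 FPKM with dTAG13, against 4.10 and 3.82 FPKM with DMSO. Of 13 AP-1 target genes 2 rose, Lif (0.77) and Hmox1 (0.51), and 1 fell, Spp1 (-0.78). Among the heat shock and dissociation genes, Hsph1 (-0.96) and Hspa5 (-0.90) fell. The adjusted p of these bZIP, kinase, target and heat shock genes, from limma, ran from 0.00139 for Spp1 to 0.0420 for Lif.

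**Figure D4:**
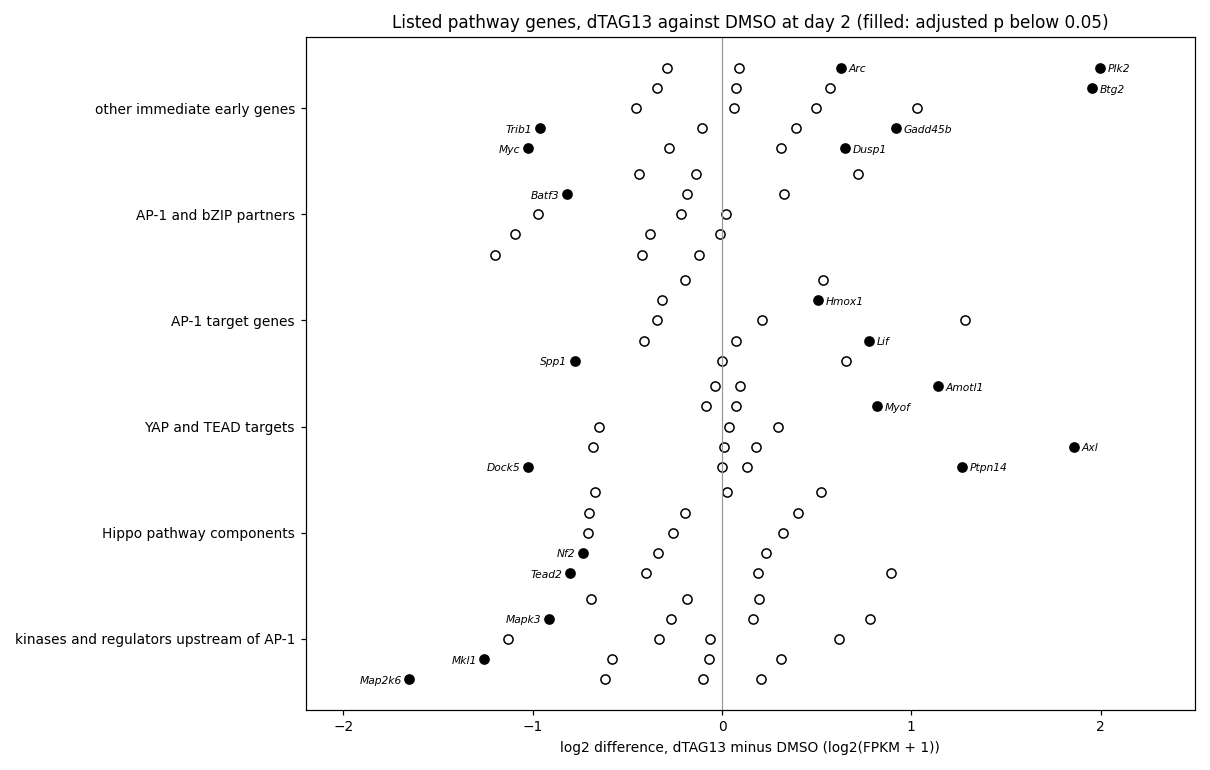
Log2 difference of dTAG13 minus DMSO (x axis, log2(FPKM + 1) scale) for the tested genes of 6 pathway lists (rows; the vertical offset within a row has no meaning); filled, named points passed at an adjusted p below 0.05. The immediate early row holds 5 genes that rose and 2 that fell, and the Hippo component row none that rose.

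Between OE and EV few of these list genes changed, and of all genes tested 0.846% were called at day 2 and 3.72% at day 6. At day 2, Plk2 fell and the cytoskeletal immediate early gene Arc rose by 0.84 (limma adjusted p = 0.0321) among the 20 immediate early genes, and 0 of 17 YAP and TEAD targets and 0 of 16 Hippo components passed. At day 6, 1 of 20 immediate early genes rose (Gadd45b, by 1.45) and 3 fell, including Myc by 1.37 and Plk2. Wwtr1, which encodes the co-activator TAZ, had 14.4 and 13.4 FPKM in OE, against 5.45 and 6.68 FPKM in EV (1.08, limma adjusted p = 0.0192). It was the only 1 of 16 Hippo components to pass. Among 17 YAP and TEAD targets Gadd45a rose by 0.76 (limma adjusted p = 0.0381). Between the days in EV, 5 of 20 immediate early genes rose and 5 fell, led by Ier3 (2.94) and Myc (-2.36). Of 13 AP-1 target genes 4 rose and 5 fell. Among 17 YAP and TEAD targets 0 rose and 2 fell, Amotl2 by 1.18 and Ajuba by 0.79. Of all genes tested, 13.3% were higher and 10.5% lower in that comparison.

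Some genes listed as markers of other cell types also differed between dTAG13 and DMSO, and others of the same lists did not. Of 8 trophoblast markers, 5 were in the table, and their summed level was 136.5 and 152 FPKM with dTAG13, 57.8 and 57.5 with DMSO, 25.1 to 28.8 in the OE and EV libraries of day 2 and 27.5 to 39.1 at day 6. Krt8 and Krt18, keratins also made by other simple epithelia, carried most of it, with 96.2 and 76.2 FPKM of Krt8 with dTAG13, against 38.7 and 35.5 FPKM with DMSO. Gata3 stood at 2.64 and 1.74 FPKM with dTAG13, against 1.47 and 1.16 FPKM with DMSO; Plac1 was at 0 and 0.59 FPKM with dTAG13, against 0.187 and 0.369 FPKM with DMSO. Krt7 split the libraries, at 0 and 12.6 FPKM with dTAG13, against 2.91 and 3.02 FPKM with DMSO; Cdx2, Elf5 and Tfap2a were not in the table. Of 9 mesoderm markers 6 were in the table, with sums of 11.4 and 14.5 FPKM with dTAG13 and 8.77 and 7.58 FPKM with DMSO. Among them Hand1 had 7.94 and 10.7 FPKM with dTAG13, against 4.16 and 2.88 FPKM with DMSO. Eomes went the other way, at 0 and 1.47 FPKM with dTAG13, against 2.14 and 1.81 FPKM with DMSO, and Mixl1, Kdr and Tbx6 were listed at 0 in D2_dTAG replicate 1. The part of such cells in the differences of the 9 genes was not tested. The fibroblast sum was 51.3 and 72.8 FPKM with dTAG13, against 112 and 101 FPKM with DMSO (3 of 10 in the table, mostly Fn1). Col1a1 and Pdgfrb overlapped between the groups. The primitive endoderm sum was 4.56 and 6.94 FPKM with dTAG13, against 11.9 and 11.3 FPKM with DMSO (5 of 8). Lama1 carried most of that gap, at 0.00772 and 1.70 FPKM with dTAG13, against 5.74 and 5.99 FPKM with DMSO. Dab2 was also lower, while Gata4, Gata6 and Col4a1 overlapped, Col4a1 at 4.56 and 3.69 FPKM with dTAG13, against 3.77 and 3.72 FPKM with DMSO.

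PGCLC markers changed in the same comparisons. With dTAG13, 3 of 13 rose and 2 fell, led by Dppa3 (0.96, limma adjusted p = 0.0124), an early germ cell and oocyte factor, with Tfap2c rising (0.68) and Dnd1 falling (-0.65). In OE at day 6, where Egr1 and Fosl1 fell, 3 of 13 rose: Dppa3 (1.24, adjusted p = 0.00974), the receptor gene Kit (1.08) and Nanog (0.65). In OE at day 2, the RNA-binding germ cell gene Nanos3 fell (-1.59, adjusted p = 0.0462) and 0 rose. The part of these shifts in the differences of the 9 genes was not tested.

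Some of the 9 genes share exon bases with another gene in GENCODE M21, and whether the authors' counting used strand is not given in the sources used here. Ccdc85b, on the opposite strand, covers 57.2% of the annotated Fosl1 exon bases and read 1.69 and 1.23 FPKM with dTAG13, against 1.42 and 1.59 FPKM with DMSO. In OE at day 6 it read 2.66 and 2.32 FPKM, against 0.903 and 1.24 FPKM in EV, opposite to Fosl1. Prdx2 covers 7.52% of Junb and read 567 and 597 FPKM with dTAG13, against 751 and 610 FPKM with DMSO. Antisense or noncoding genes that were not in the table cover 52.6% of Jund, 23.2% of Ctgf and 7.28% of Jun. Reads that lie within the shared bases cannot be told apart without strand.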

How the data were processed

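According to the submitters' processing notes, the tools were FastQC 0.10.1, cutadapt within Trim Galore 0.6.3, STAR 2.7.6a with the mm10 genome, and Cufflinks 2.2.1; annotation, strand setting and any gene filter are not given in the sources used here. The FPKM values that the authors deposited carry an added 1, read from their digits (90.1% of entries from 1.1 to 2 show at least 7 digits; 0% of entries from 2 to 10 do), and it was taken off here. Depth is unknown, so the precision of low values is too.

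Genes with at least 1 FPKM in 2 libraries (12059) were fitted with limma 3.58.1 (R 4.3.3) on log2(FPKM + 1) in 1 linear model of 6 groups with a trended prior variance. All 9 genes passed this filter, also without the dTAG13 libraries. Adjusted p values (Benjamini-Hochberg) run over all genes tested, and list counts use the same fit. One sample title spells dTAG13 differently, and its treatment field was used. The genes, lists and tests were chosen with earlier results of these data known. Named list genes are up to 3 called per list and comparison with the largest change, or, where none is called, up to 2 of the highest mean, besides the 2 genes nearest in profile to each gene. The 4 other CCN genes listed were not in the table. One result of the heat shock and dissociation list is not reported here. Alternatives covered pseudocount, filter, scaling, samples, weights, trend and a replicate block. The fit was checked on simulated data. Python 3.11.15, pandas 2.3.3, numpy 2.4.6 and matplotlib 3.10.9 were used.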

Additional observations from a re-analysis of the deposited data

How the results depend on the processing

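The model pools the spread over all 6 groups, the dTAG13 libraries included. Of the 9 genes, OE at day 2 called 0, but 2 (Jun and Ctgf) with only the groups compared, without both dTAG13 libraries or with sample quality weights. OE at day 6 called 2, but 4 with only the groups compared or without both dTAG13 libraries, 5 with weights and 1 with the replicate block. Day 6 against day 2 in EV called 2, but 4 with quantile normalization, median-ratio scaling, only the groups compared, without both dTAG13 libraries or with weights, and 1 with a pseudocount of 0.1, no filter or no trend. In OE it called 3, but 7 with only the groups compared, 5 without both dTAG13 libraries, 6 with weights, 4 with a pseudocount of 0.5 and 2 without trend. The difference of OE effects called 0, but 1 with quantile normalization or median-ratio scaling and 2 with only the groups compared, without both dTAG13 libraries or with weights. Leaving out single libraries, D2_dTAG replicate 1 included, gave 0 to 2 calls (OE at day 2), 0 to 4 (OE at day 6), 0 to 4 (days, EV), 1 to 5 (days, OE) and 0 to 2 (difference). The median difference of the 9 genes ran from 0.52 to 1.36 with dTAG13 and from 0.27 to 0.61 for DMSO over EV when single libraries were left out.

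Over all lists together, 3 genes were called in OE at day 2 (25 without D2_dTAG replicate 1) and 15 at day 6 (48 without it). Between days, 43 were called in EV (77 without it) and 51 in OE (79 without it). For DMSO over EV the count was 3 (20 without D2_dTAG replicate 1, 5 with quantile normalization). In the difference of OE effects it was 1 (30 without that library, 3 with quantile normalization or median-ratio scaling). With dTAG13, 34 list genes were called in the main fit. Of all genes tested, 1473 passed with dTAG13 in that fit, 0 with only the groups compared and 20 with sample quality weights.

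Signs turned for values that were not called. Under quantile normalization these were -0.031 (Junb, OE at day 2) and, between days in EV, -0.12 (Fosl1), -0.051 (Jun), 0.15 (Junb) and -0.31 (Atf3). Median-ratio scaling gave 0.0016 for Junb between days in EV. Leaving out single libraries gave ranges across 0: -0.020 to 0.19 for Junb (OE, day 2), -0.51 to 0.20 for Atf3 (OE, day 6), -0.31 to 0.14 for Cyr61 (days, OE) and, between days in EV, -0.0025 to 0.50 for Fosl1, -0.13 to 0.23 for Jun, -0.033 to 0.013 for Junb and -0.31 to 0.39 for Atf3. The cause was not tested.

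Replicate numbers are not said to mark a shared culture or day, and the correlation of replicate gaps between groups ran from -0.13 to 0.25, so the numbers were not shown to pair the samples. With the block, Fosl1 in OE at day 6 was the only member call lost.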
